A study of Lotus japonicus with 18 samples.

Results

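The AP2/ERF transcription factors of Lotus japonicus, a model legume, were followed in shoots of wild type (WT) and of 2 lines deficient in the transcription factor MYB36, with and without salt. Members were the genes of the deposited table whose description carried the Pfam AP2 domain or whose Swiss-Prot name was that of an ethylene-responsive transcription factor; 1 further gene was left out by the rule and not analysed here. This gave 148 of 33994 genes, of which 140 carried the domain and 8 were taken by name only. The names are those of the most similar Swiss-Prot protein, an Arabidopsis one for 127 members, so each marks a likeness and not a proven identity.

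The study asked how MYB36 deficiency changes shoot gene expression under salt, by poly(A) RNA sequencing. WT and the 2 lines, labelled Lmyb36-1 (line 1) and Lmyb36-2 (line 2) and described in the series as knockouts of the MYB36 gene, were each grown in 'Hornum' nutrient solution alone (control) or with added NaCl, which went up by 50 mM every 4 days until it reached 100 mM. Salt plants were harvested after 2 days at 100 mM, and shoots of every group were taken on day 34, 4 hours into the light period. Each of the 6 groups had 3 libraries labelled as biological replicates, so 18 in all, and how many plants went into 1 library was not stated. The sources used here do not say how the lines were made or whether they share a parent, and 2 lines limit what can be said of the gene rather than of the line.

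AP2/ERF proteins bind DNA through the AP2 domain and form one of the largest families of plant transcription factors. In Arabidopsis the ethylene signal reaches them through EIN3, which switches on ERF1-type genes, and these in turn bind the GCC box in promoters of defence genes such as chitinases. DREB-type members bind the dehydration-responsive element of drought, salt and cold genes, while AP2-type members act mainly in flower and meristem development.

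Recovered read totals ran from 42125949 to 101713201 per library, and 100% of the values checked came out as whole reads (tolerance 0.05 of a read). The tissue label held: 20 chlorophyll-binding and Rubisco small-subunit genes summed to between 46735 and 70968 FPKM (fragments scaled to gene length and library depth) per library. None of the 4 leghemoglobin genes, markers of root nodules, exceeded 0.257 FPKM in any library. Summed levels were 8.32 to 14.6 FPKM for 16 seed markers and 141.9 to 225.3 FPKM for 4 flower and pollen markers. Of the latter, LotjaGi1g1v0246000, named after a pollen allergen, alone had 140.2 to 223.8 FPKM. The AGAMOUS-like genes LotjaGi6g1v0315800 and LotjaGi4g1v0382000 reached at most 2.29 and 1.54 FPKM, and the other allergen-like gene 0.0354. The part of the seed, flower and pollen markers in the results was not tested. The 18 libraries separated along a first principal component of deviations from group means with 30.8% of the variance. It divided every group into 2 libraries on one side and 1 on the other, 9 and 9 in all (1 library lay close to 0), and values within each set are given beside the counts they change. The side low on this component held 1 library each of WT control, line 1 control and line 1 salt, and 2 of each other group. The side high on it held the reverse numbers. Counts from 1 side alone thus rest on unequal numbers of libraries. In whole shoots fewer cells of a type and less RNA per cell cannot be told apart.

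Members passed the filter for testing, 3 or more libraries at 1 FPKM or above, about as often as all genes did. Of the 148 members 87 passed, against 20433 of all 33994 genes. The other 61 members did not, of which 54 stayed under 1 FPKM in every library, among them 4 at 0 throughout. Since a member can pass through 1 high group alone, counts below refer to the 87 and are read against the same count over all 20433 genes that passed. A mean level of at least 10 FPKM over the 18 libraries was reached by 31 members, and of at least 30 FPKM by 8.

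**Figure D1:**
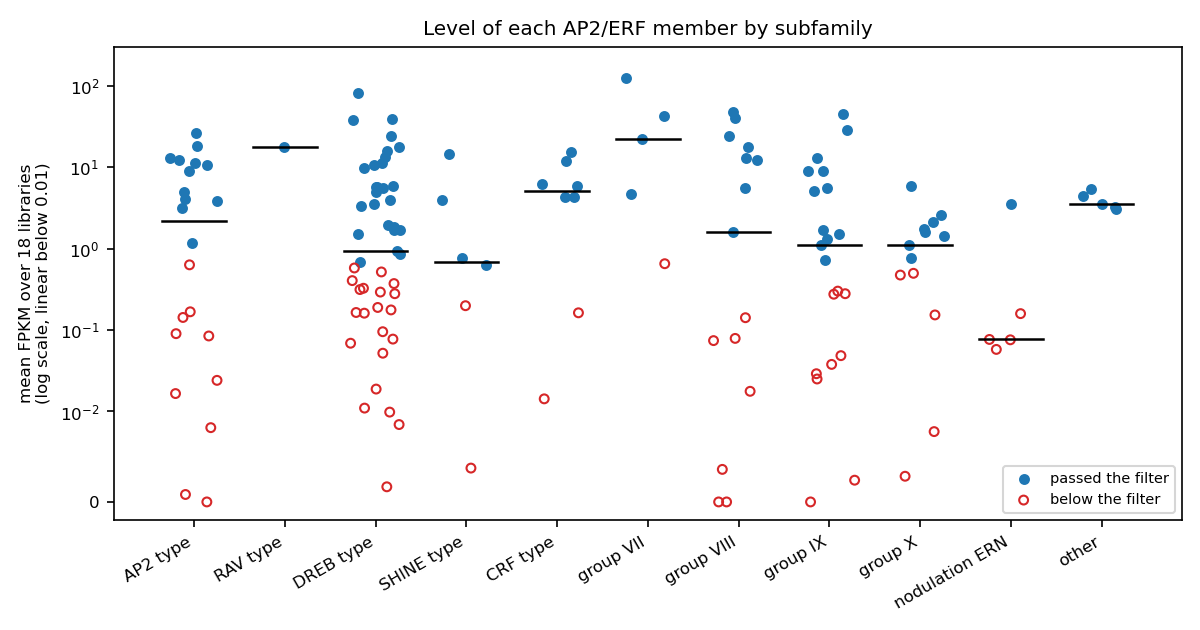
Mean FPKM over the 18 libraries of each of the 148 AP2/ERF members, on a logarithmic axis that is linear below 0.01, by subfamily; filled points passed the filter for testing, open points did not, and bars mark the median of each subfamily. The highest point is RAP2-2 of group VII at 126 FPKM, and every subfamily apart from RAV type and the remaining members has members below the filter.

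The subfamilies differed in median level. Their counts past the filter are read against 87 of the 148 members, and no subfamily was tested for a difference. Group VII, the factors that in Arabidopsis sense low oxygen through their stability, had 4 of 5 members past the filter and the highest median level of the subfamilies, 21.99 FPKM. DREB-type members were the most numerous, with 26 of 47 past the filter and a median of 0.928 FPKM. The AP2 type had 12 of 22 past the filter, group IX 12 of 21, group VIII 8 of 15, group X 8 of 13, the cytokinin response factors (CRF) 6 of 8 and the SHINE type 4 of 6. Of 5 members most similar to the nodulation factors ERN1 and ERN3 of legumes, 1 passed. The remaining 5 members fall in none of these subfamilies, and 2 of them are named after a DNA helicase (SMUBP-2, LotjaGi1g1v0721200) and a zinc-finger protein (transcription factor IIIA, LotjaGi5g1v0304900_LC) although their descriptions carry the AP2 domain.

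RAP2-2 LotjaGi3g1v0409200 (chromosome 3, 81293002 to 81296890) was the most abundant member. It had 109.7, 129 and 118 FPKM in the WT controls, 128, 110.5 and 113 in WT salt, 107, 129 and 125 in the line 1 controls, 128, 133 and 130.5 in line 1 with salt, 134, 133 and 126 in the line 2 controls and 130.3, 153 and 135 in line 2 with salt. Among the pairs of groups compared, line 2 salt lay above WT salt and the rest overlapped, and none of the 8 comparisons passed (log2 changes from -0.02 to 0.25, the latter with limma adjusted p = 0.0574 in line 2 against WT in salt). RAP2-4 LotjaGi1g1v0240700, a DREB-type factor of light and drought responses in Arabidopsis, followed with a mean of 82.1 FPKM. ERF4 LotjaGi3g1v0451700, named after an Arabidopsis repressor of ethylene responses, had 48.4 FPKM, ERF5 LotjaGi4g1v0199300_LC (by likeness to tobacco ERF5) 45.02 FPKM and RAP2-3 LotjaGi4g1v0338100_LC 43.2 FPKM.

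With salt in WT, AP2/ERF genes fell more often than they rose. Of the 87 members tested 24 fell and 6 rose (27.6% and 6.90%), where over all genes tested 9.91% fell, 6.35% rose and 16.3% did either (limma, adjusted p under 0.05). The median log2 change of the members was -0.24, against 0.01 over all genes. Group IX, which holds the ethylene- and jasmonate-responsive activators of defence genes, had 7 of 12 members lower and 0 higher. Group X had 4 of 8 lower and 0 higher, the DREB type 4 lower and 3 higher of 26, and the AP2 type 2 lower and 0 higher of 12. Under quantile normalization 17 members fell and 8 rose, and over all genes 1784 fell and 1589 rose (2025 and 1298 without it). The library set low on the first component, analysed alone, gave 10 calls among the members and the high set 25; they are called the lower and upper set from here on.

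**Figure D2:**
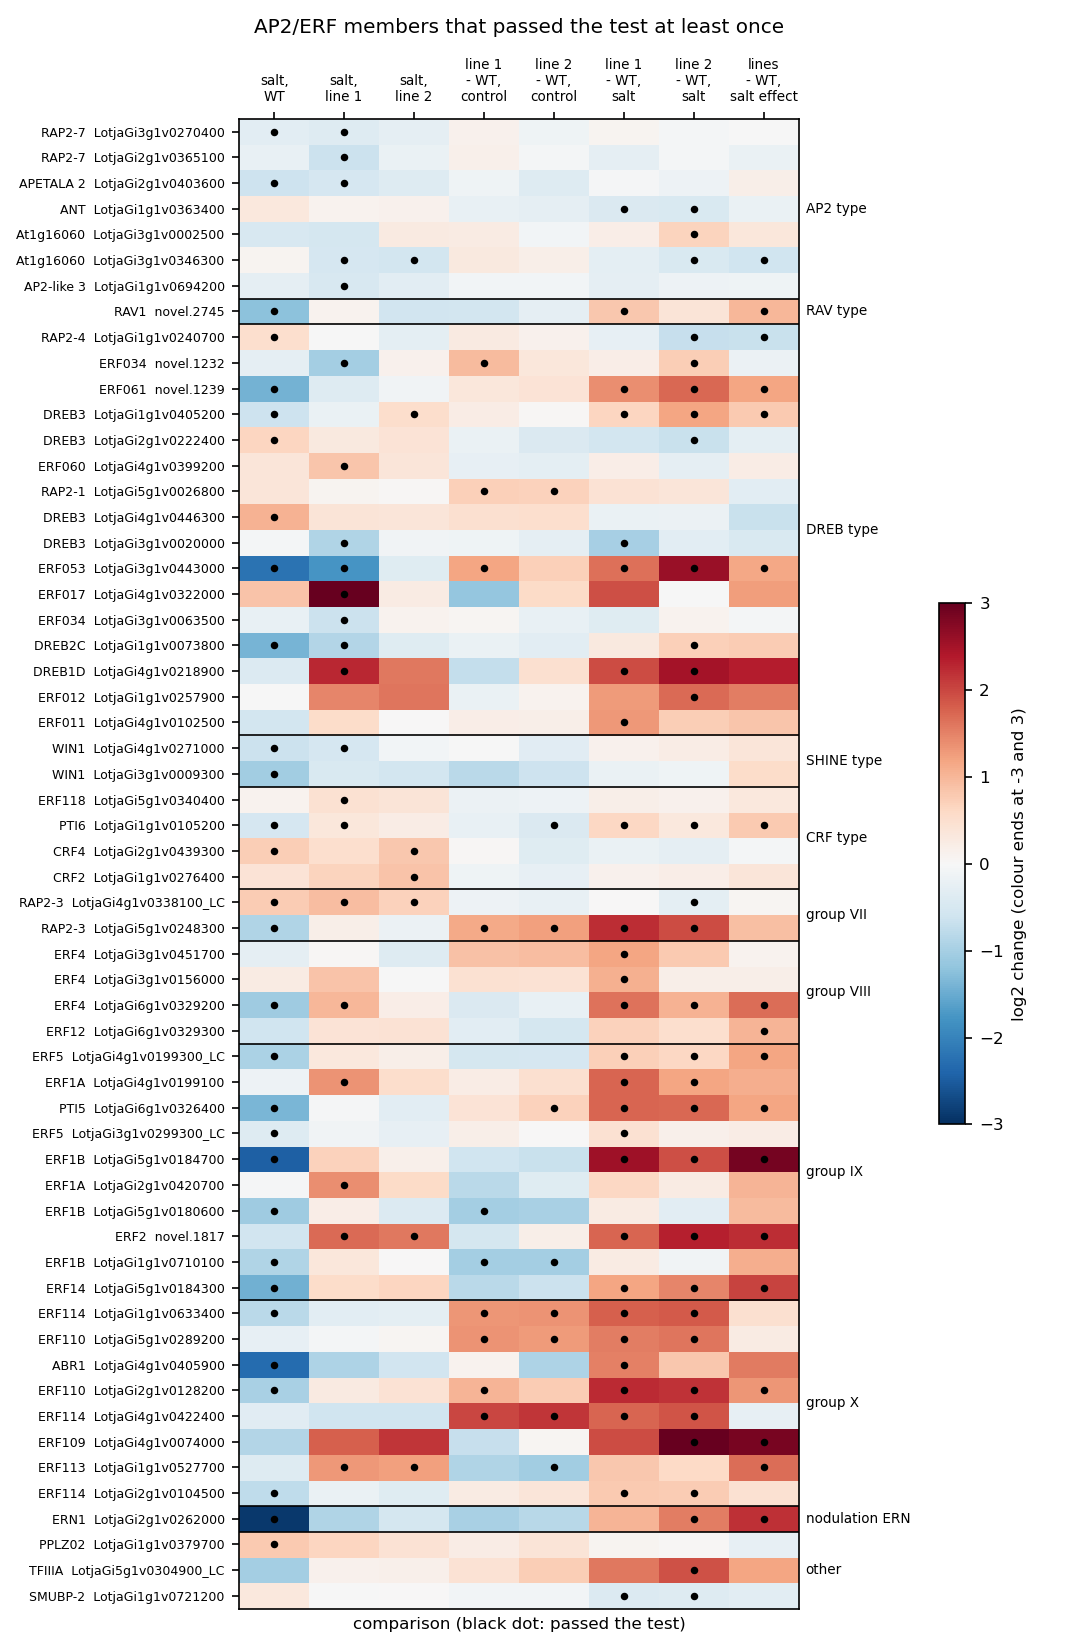
Log2 change (colour, from -3 in blue to 3 in red) of the 58 members that passed the test in at least 1 of the 8 comparisons, ordered by subfamily; a black dot marks a comparison that passed. The column for salt in WT is mostly blue in groups IX and X, and the columns for the lines against WT in salt are mostly red there.

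ERF1B LotjaGi5g1v0184700 (chromosome 5, 47021584 to 47023437) was 1 of several members named after ERF1B, a direct target of EIN3 in the Arabidopsis ethylene pathway. It had 6.06, 10.04 and 8.48 FPKM in the WT controls and 1.33, 1.03 and 0.864 under salt. The 2 groups did not overlap (-2.45 on the log2 scale, SE 0.26, limma adjusted p = 2.48e-06). PTI5 LotjaGi6g1v0326400 (chromosome 6, 64154497 to 64156059), which in tomato binds the GCC box of pathogenesis-related genes, went from 6.92, 7.87 and 8.20 to 2.74, 2.80 and 2.42 FPKM, again without overlap (-1.37 on the log2 scale, SE 0.13, limma adjusted p = 1.21e-06). ERF5 LotjaGi4g1v0199300_LC was at 76.7, 51.5 and 50.5 FPKM in control and 35.2, 26.7 and 29.3 in salt. It was the most abundant tested member of group IX in each of the 18 libraries, and its salt libraries lay below its control libraries (-0.94 on the log2 scale, SE 0.18, limma adjusted p = 0.00104).

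Another 3 falls in group IX did not stand in every fit that left out 1 library. ERF14 LotjaGi5g1v0184300 had 1.27, 1.03 and 0.977 FPKM in control and 0.305, 0 and 0 in salt, a level close to the limit of detection (-1.44 on the log2 scale, SE 0.39, limma adjusted p = 0.0156). Its call was lost without WT control replicate 1 or WT salt replicate 2 or 3 (limma adjusted p = 0.0557 to 0.0624). ERF1B-like LotjaGi5g1v0180600 (-1.06 on the log2 scale, limma adjusted p = 0.0284) was lost without WT control replicate 1 or 3 or WT salt replicate 1 or 2 (limma adjusted p = 0.0932 to 0.124). ERF1B-like LotjaGi1g1v0710100 (-0.90, limma adjusted p = 0.0292) was lost without WT control replicate 1 or 3 or WT salt replicate 1 or 2 (limma adjusted p = 0.0505 to 0.155).

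In group X, factors linked to wounding and abscisic acid in Arabidopsis, ABR1 LotjaGi4g1v0405900 had 2.33, 2.41 and 7.17 FPKM in the WT controls and 0.141, 1.13 and 0 under salt (-2.31 on the log2 scale, SE 0.41, limma adjusted p = 6.48e-04). One control library lay well above the other 2, and all 3 salt libraries lay below them. ERF114 LotjaGi1g1v0633400 went from 3.13, 3.42 and 2.82 to 1.30, 1.51 and 1.99 FPKM with no overlap (-0.80 on the log2 scale, SE 0.13, limma adjusted p = 2.32e-04). ERF110 LotjaGi2g1v0128200 had a log2 change of -0.97 (limma adjusted p = 0.0441). It was lost without WT control replicate 1, 2 or 3 or WT salt replicate 1 or 3 (limma adjusted p = 0.0614 to 0.184).

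The largest fall of any member was that of the ERN1-like gene LotjaGi2g1v0262000 (chromosome 2, 73045635 to 73047158). Lotus ERN1 is known for its part in infection by rhizobia in roots. Here its relative was read in shoots at 6.93, 8.17 and 8.05 FPKM in the WT controls and 0.150, 0.298 and 2.03 under salt (-2.90 on the log2 scale, SE 0.38, limma adjusted p = 2.72e-05). The groups did not overlap, although salt replicate 3 stood above the other 2 salt libraries. ERF053 LotjaGi3g1v0443000 (chromosome 3, 85586584 to 85589610), a DREB-type factor of drought responses in Arabidopsis, went from 4.196, 2.37 and 3.21 to 0.347, 0.384 and 0.163 FPKM (-2.22 on the log2 scale, SE 0.26, limma adjusted p = 8.33e-06).

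ERF061 (chromosome 2, 93722503 to 93727200), a DREB-type gene, had 17.9, 15.3 and 17.03 FPKM in the WT controls and 4.73, 5.72 and 7.69 under salt (-1.42 on the log2 scale, SE 0.27, limma adjusted p = 9.62e-04). DREB2C LotjaGi1g1v0073800, an Arabidopsis activator of heat and osmotic stress genes, had 2.33, 2.69 and 2.89 (control) and 0.536, 1.01 and 0.584 (salt) FPKM (-1.39 on the log2 scale, SE 0.22, limma adjusted p = 2.13e-04). RAV1 (chromosome 5, 57974777 to 57983194), which joins an AP2 to a B3 domain and restrains growth in Arabidopsis, had 26.9, 26.3 and 22.5 (control) and 12.6, 7.95 and 11.2 (salt) FPKM (-1.23 on the log2 scale, SE 0.24, limma adjusted p = 0.00119). In each of these 3 genes every salt library lay below every control library. ERF4 LotjaGi6g1v0329200, by likeness to tobacco ERF4, had a log2 change of -1.07 (limma adjusted p = 0.00913). This call ended without WT control replicate 1 (limma adjusted p = 0.0557).

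Members rose with salt in WT about as often as all genes did, and 1 of the 6 rose in all 3 genotypes. RAP2-3 LotjaGi4g1v0338100_LC (chromosome 4, 71856133 to 71863624), a group VII factor of oxygen and osmotic stress responses in Arabidopsis, had 35.8, 33.4 and 33.3 FPKM in the WT controls and 62.5, 53.8 and 58.5 under salt (0.76 on the log2 scale, SE 0.09, limma adjusted p = 5.09e-06). In line 1 it had 30.7, 30.3 and 30.7 FPKM in control and 59.8, 56.7 and 59.97 in salt (0.93 on the log2 scale, SE 0.09, limma adjusted p = 3.83e-06). In line 2 it had 28.8, 32.2 and 27.2 (control) and 52.5, 45.8 and 45.2 (salt) FPKM (0.69 on the log2 scale, SE 0.09, limma adjusted p = 2.70e-04). In each genotype the salt libraries lay above the control libraries, and the difference between the lines and WT in this salt effect was 0.05 on the log2 scale (limma adjusted p = 0.849). Its level in salt was nonetheless called lower in line 2 than in WT, with group means of 47.8 and 58.3 FPKM.

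DREB3 LotjaGi4g1v0446300 was at 2.67, 3.79 and 3.45 FPKM in the WT controls and 7.38, 6.63 and 7.86 under salt (1.04 on the log2 scale, SE 0.20, limma adjusted p = 0.00118). CRF4 LotjaGi2g1v0439300, a cytokinin response factor, was at 3.67, 3.35 and 3.28 (control) and 6.87, 5.41 and 5.92 (salt) FPKM (0.73 on the log2 scale, SE 0.17, limma adjusted p = 0.00428). RAP2-4 LotjaGi1g1v0240700 was at 81.1, 65.6 and 70.2 (control) and 97.2, 111 and 100.2 (salt) FPKM (0.51 on the log2 scale, SE 0.11, limma adjusted p = 0.00402). These 3 rises held in the fits that left out any 1 of the 6 WT libraries. Those of DREB3 LotjaGi2g1v0222400 (0.64, limma adjusted p = 0.0272) and of the lupin-named PPLZ02 LotjaGi1g1v0379700 (0.79, limma adjusted p = 0.0168) did not. The first was lost without WT control replicate 2 or 3 or WT salt replicate 1 or 3 (limma adjusted p = 0.0745 to 0.113). The second was lost without WT control replicate 1 or 2 (limma adjusted p = 0.0642 to 0.0791). Of the 30 members called in WT, 18 were called in every such fit, 14 lower and 4 higher.

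In line 1, salt moved members in both directions, in a balance that varied with the libraries used. Of the 87, 11 rose and 11 fell (12.6% each), where 4.19% of all genes rose, 4.42% fell and 8.61% did either. Members of the AP2 type were lower (5 of 12, 0 higher), while group IX had 3 of 12 higher and 0 lower and the CRF type 2 of 6 higher. ERF017 LotjaGi4g1v0322000, a DREB-type gene, had 0, 0.332 and 0.372 FPKM in the line 1 controls and 10.7, 9.15 and 11.9 under salt (3.95 on the log2 scale, SE 0.78, limma adjusted p = 0.00382), with no overlap. It also varied within WT, from 0.0592 to 6.48 FPKM over the 3 control libraries, and limma voom on recovered reads gave adjusted p = 0.114 for line 1. ERF034 (chromosome 2, 91932227 to 91933834) went the other way, from 35.4, 43.7 and 35.8 to 18.4, 18.4 and 18.7 FPKM (-1.02 on the log2 scale, SE 0.13, limma adjusted p = 9.59e-05).

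ERF053 LotjaGi3g1v0443000 fell in line 1 as in WT, from 9.93, 8.32 and 5.91 to 1.11, 2.21 and 2.96 FPKM (-1.76 on the log2 scale, SE 0.26, limma adjusted p = 3.43e-04). The ERF1A-like gene LotjaGi2g1v0420700 rose from 1.89, 2.88 and 3.32 to 8.54, 7.61 and 7.12 FPKM (1.39 on the log2 scale, SE 0.31, limma adjusted p = 0.00872). In both genes the line 1 salt and control libraries did not overlap. ERF4 LotjaGi6g1v0329200, lower with salt in WT, was at 7.46, 12.8 and 9.10 FPKM in the line 1 controls and 16.1, 19.3 and 23.9 under salt (0.99 on the log2 scale, SE 0.27, limma adjusted p = 0.0280). That call did not stand without line 1 control replicate 1 or 3 or line 1 salt replicate 2 or 3 (limma adjusted p = 0.0614 to 0.113). DREB1D LotjaGi4g1v0218900, named after a cold-response activator of Arabidopsis, had a log2 change of 2.25 (SE 0.64) with limma adjusted p = 0.0368. This rise was lost without line 1 control replicate 1 or 2 or line 1 salt replicate 2 or 3 (limma adjusted p = 0.0536 to 0.159). In line 1, 6 of the 22 calls stood in every fit without 1 library. The number called was 10 without line 1 control replicate 2 (7 higher, 3 lower) and 11 without line 1 control replicate 3 (5 higher, 6 lower). It was 13 without line 1 salt replicate 1 (9 higher, 4 lower) or line 1 salt replicate 3 (4 higher, 9 lower), and voom gave 5 higher and 9 lower. The upper library set alone gave 26 calls. The lower set held only 1 control and 1 salt library of line 1.

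In line 2, the members called with salt were about as frequent as among all genes. Of the 87, 6 rose and 1 fell (6.90% and 1.15%), where 4.24% of all genes rose, 4.42% fell and 8.66% did either. After scaling to the gene total 4 rose and 3 fell. CRF4 LotjaGi2g1v0439300 rose from 2.16, 2.80 and 2.77 to 4.68, 4.81 and 5.23 FPKM (0.82 on the log2 scale, SE 0.17, limma adjusted p = 0.00668), without overlap. With RAP2-3 LotjaGi4g1v0338100_LC it was 1 of the 2 rises that stood in every fit without 1 library. The number called was 2 without line 2 control replicate 1 and 3 without line 2 control replicate 2, line 2 control replicate 3 or line 2 salt replicate 3. CRF2 LotjaGi1g1v0276400 (0.86, limma adjusted p = 0.0358) was lost without line 2 control replicate 1, 2 or 3 or line 2 salt replicate 2 or 3 (limma adjusted p = 0.0735 to 0.140). The lower library set alone gave 2 calls, while 14 passed with the set as a term in the fit. The upper set held only 1 control and 1 salt library of line 2.

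Salt changed 4 members in both lines, which share no libraries: RAP2-3 LotjaGi4g1v0338100_LC, ERF113 LotjaGi1g1v0527700 and ERF2 (chromosome 3, 7113543 to 7118902) rose, and At1g16060-like LotjaGi3g1v0346300 fell. Over all genes 1.76% rose in both lines and 1.69% fell in both. ERF113, of group X, was at 0.906, 0.247 and 0.333 FPKM in the line 1 controls and 2.01, 1.14 and 2.67 under salt, and at 0.333, 0.598 and 0.207 (control) and 2.02, 1.41 and 1.28 (salt) in line 2. Its WT values, 1.72, 0.896 and 1.32 in control and 0.850, 1.26 and 0.539 in salt, overlapped. The ERF113 rises (1.30 and 1.24 on the log2 scale, limma adjusted p = 0.0111 and 0.0181) did not stand in every fit. That of line 1 was lost without line 1 control replicate 2 or 3 or line 1 salt replicate 3 (limma adjusted p = 0.0534 to 0.0639). That of line 2 was lost without line 2 control replicate 1 or 3 or line 2 salt replicate 1 (limma adjusted p = 0.0614 to 0.0852).

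ERF2, a member by name only and similar to ERF2 of the tobacco Nicotiana sylvestris, was at 0.249, 0.374 and 0.274 (control) and 1.70, 1.65 and 3.10 (salt) FPKM in line 1 and at 0.873, 0.810 and 0.698 (control) and 4.59, 2.23 and 3.64 (salt) in line 2. Its WT means were 0.707 FPKM in control and 0.430 in salt. It passed the filter largely through the salt libraries of the lines, the groups where it was high. Salt libraries lay above control libraries in both lines, and in WT the 2 groups overlapped, with 2 of 3 salt libraries at 0. Both passed (1.69 and 1.58 on the log2 scale, limma adjusted p = 0.0157 and 0.0265). The rise in line 1 ended without line 1 control replicate 3 or line 1 salt replicate 3 (limma adjusted p = 0.0530 to 0.0716). The rise in line 2 ended without line 2 control replicate 1, 2 or 3 or line 2 salt replicate 1 or 3 (limma adjusted p = 0.0684 to 0.0897). At1g16060-like LotjaGi3g1v0346300, of the AP2 type, had log2 changes of -0.50 in line 1 (limma adjusted p = 0.0430) and -0.55 in line 2 (limma adjusted p = 0.0269). In line 1 it was lost without line 1 control replicate 1 or 2 or line 1 salt replicate 1 or 2 (limma adjusted p = 0.0938 to 0.180). In line 2 it was lost without line 2 control replicate 1, 2 or 3 or line 2 salt replicate 2 or 3 (limma adjusted p = 0.0587 to 0.104).

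**Figure D3:**
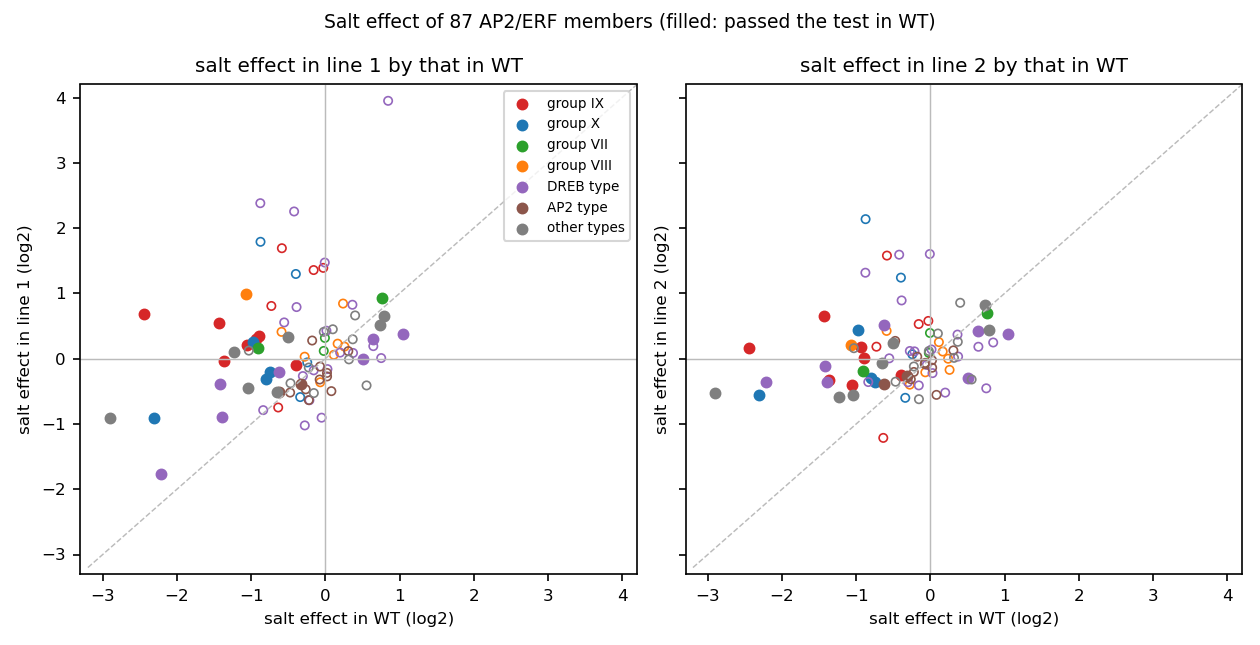
Salt effect (log2 change of salt against control) of the 87 members tested in line 1 (left) and line 2 (right), each against the salt effect in WT; colours give the subfamily, filled points passed the test in WT, and the dashed line marks equal effects. Most filled points on the left of 0 lie above the dashed line, since the 24 members that fell in WT had a median of -1.01 there against -0.15 (line 1) and -0.26 (line 2). They were picked by their WT value, so part of this gap is built in. The same medians over all genes were not computed.

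The 24 members that fell with salt in WT had median log2 changes of -1.01 there, -0.15 in the first line and -0.26 in the second. The test passed for 7 of them in line 1 (5 lower, 2 higher) and for 1 in line 2 (higher). The 6 that rose in WT had medians of 0.75 there, 0.45 in line 1 and 0.43 in line 2, with 5 of the 6 estimates above 0 in each line, and 1 passed in line 1 and 2 in line 2. All of these genes were picked by their WT value, so a smaller value elsewhere is partly built in. The matching medians and counts for all genes called in WT were not computed. Whether the members differ from other genes in this was thus not tested. Across the 87 members, which are not independent and were all read in the same libraries, Pearson's r of the salt effects was 0.71 for line 1 with line 2, 0.26 for line 1 with WT and 0.16 for line 2 with WT. The same correlations over all genes tested were not computed, so these values are not read as a trait of the family.

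The difference between genotypes in the salt effect was tested by subtracting the WT salt effect from the mean of the 2 lines. It was above 0 for 16 members and below 0 for 2 (18.4% and 2.30%), where over all genes 5.89% were above, 2.27% below and 8.16% either. The members' median was 0.25, against 0.00 over all genes. By subfamily, 5 of 12 tested members of group IX were above and 0 below, 3 of 8 of group X, 2 of 8 of group VIII, 3 of 26 of the DREB type with 1 below, and 1 of 6 of the CRF type. Without WT control replicate 1 the number called was 11, and 11 members, 10 above and 1 below, were called in every fit that left out 1 library. The upper library set alone gave 2 calls and the lower set 12, and 11 passed with no filter on low values.

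ERF1B LotjaGi5g1v0184700 had the largest difference. It had 3.40, 7.76 and 5.07 FPKM in the line 1 controls, 7.46, 11.2 and 7.56 in line 1 with salt, 3.37, 5.74 and 5.76 in the line 2 controls and 5.90, 5.42 and 5.06 in line 2 with salt. The salt libraries of both lines lay above the WT salt libraries (2.87 on the log2 scale, SE 0.31, limma adjusted p = 1.57e-05). In neither line did its salt effect pass (0.69 and 0.16, limma adjusted p = 0.121 and 0.750). PTI5 LotjaGi6g1v0326400 had 8.71, 12.8 and 9.79 (control) and 8.99, 11.6 and 9.67 (salt) FPKM in line 1, and 12.02, 12.6 and 13.04 (control) and 8.73, 10.1 and 11.01 (salt) in line 2. Its salt effect was higher in the lines by 1.19 (SE 0.17), limma adjusted p = 1.46e-04. ERF5 LotjaGi4g1v0199300_LC had 38.6, 44.8 and 38.3 (control) and 41.2, 48.9 and 62.6 (salt) FPKM in line 1 and 37.1, 41.3 and 46.2 (control) and 38.6, 49.1 and 53.7 (salt) in line 2. The difference in salt effect was 1.18 (SE 0.22), limma adjusted p = 0.00195. Both had all salt libraries of the lines above those of WT, and in control all ERF5 values of the lines lay below those of WT.

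The ERN1-like gene LotjaGi2g1v0262000 had 2.98, 3.93 and 4.19 (control) and 0.995, 1.64 and 2.95 (salt) FPKM in line 1, and 4.25, 3.09 and 5.16 (control) and 2.601, 2.55 and 2.88 (salt) in line 2. The lines' salt effect exceeded that of WT by 2.19 (SE 0.47), limma adjusted p = 0.00603. It lay between the WT extremes, below all WT control libraries in the lines' control and above 2 of the 3 WT salt libraries in salt. ERF4 LotjaGi6g1v0329200 was at 8.37, 11.2 and 14.5 (control) and 8.12, 16.03 and 16.2 (salt) FPKM in line 2, and the difference in its salt effect passed (1.67 on the log2 scale, SE 0.33, limma adjusted p = 0.00312). PTI6 LotjaGi1g1v0105200, of the CRF type and in tomato a partner of the disease-resistance kinase Pto, had 14.04, 14.2 and 12.4 (control) and 10.7, 8.62 and 9.02 (salt) FPKM in WT, and 12.5, 11.6 and 10.6 (control) and 14.8, 14.2 and 15.1 (salt) in line 1. In line 2 it had 9.47, 9.76 and 10.6 (control) and 11.9, 12.2 and 11.2 (salt) FPKM, and the order of control and salt was thus opposite in WT and in the lines (0.79 on the log2 scale, SE 0.12, limma adjusted p = 3.45e-04).

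RAP2-4 LotjaGi1g1v0240700 and At1g16060-like LotjaGi3g1v0346300 were the 2 members whose salt effect was lower in the lines. RAP2-4 had 101, 87.05 and 75.8 (control) and 87.4, 88.3 and 84.6 (salt) FPKM in line 1 and 83.2, 80.4 and 71.5 (control) and 71.05, 63.6 and 57.2 (salt) in line 2. The lines' salt effect minus that of WT was -0.66 (SE 0.14), limma adjusted p = 0.00536. In line 2 every salt library lay below every control library, and in line 1 the groups overlapped. For At1g16060-like LotjaGi3g1v0346300 the difference was -0.61 (SE 0.18) with limma adjusted p = 0.0443. This difference was lost without WT control replicate 1, 2 or 3, WT salt replicate 2 or 3, line 1 control replicate 1 or 2, line 1 salt replicate 1 or 2, line 2 control replicate 1, 2 or 3 or line 2 salt replicate 2 or 3 (limma adjusted p = 0.0519 to 0.142).

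**Figure D4:**
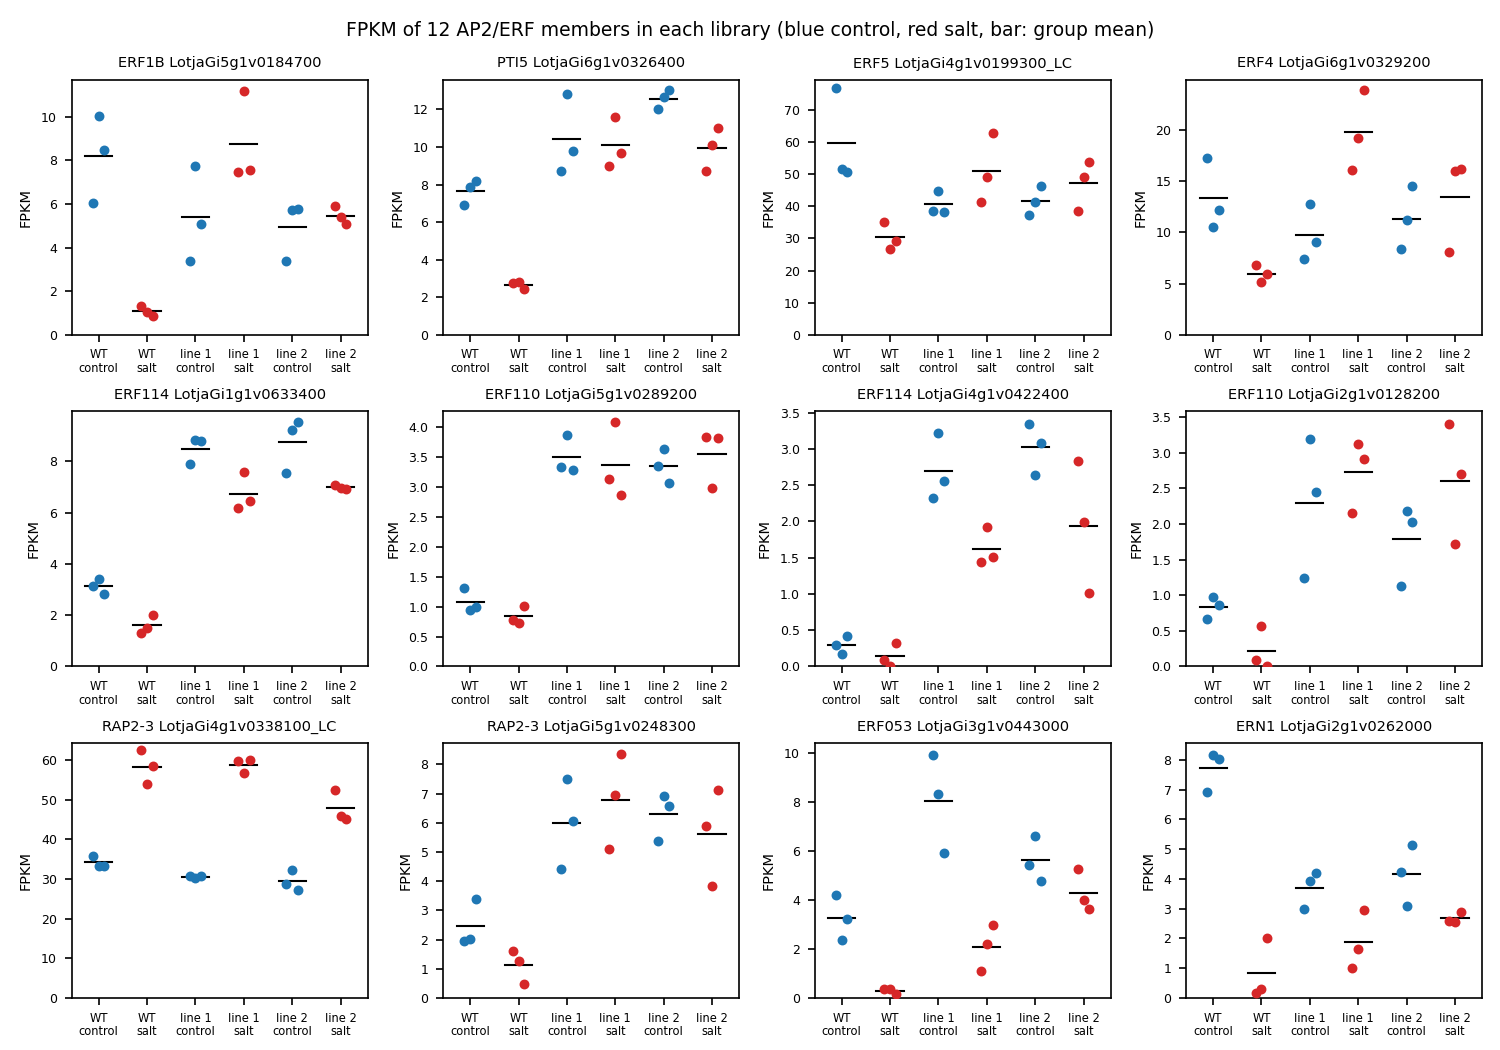
FPKM (linear axes from 0) of 12 members in each of the 18 libraries; points are libraries (blue control, red salt) and bars the mean of the 3 libraries of a group. ERF1B, PTI5 and ERF5 drop with salt in WT, both ERF114 genes and ERF110 LotjaGi5g1v0289200 stand higher in both lines under both conditions, and RAP2-3 LotjaGi4g1v0338100_LC rises with salt in each genotype.

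In control, the members called between the lines and WT were about as frequent as among all genes, and the 3 smallest adjusted p-values in each line belonged to group X genes. In line 1, 8 members were higher and 2 lower than WT (9.20% and 2.30%), where 7.37% of all genes were higher and 4.31% lower. In line 2, 6 were higher and 3 lower (6.90% and 3.45%), where 7.22% and 5.35% of all genes were. Group X had 4 of 8 higher and 0 lower in line 1, and 3 higher and 1 lower in line 2. Quantile normalization gave 8 higher and 5 lower in line 1 (1374 and 1264 over all genes) and 6 and 5 in line 2 (1424 and 1351), and scaling to the gene total 10 and 1 in line 1. The 2 comparisons share the WT control libraries, so their likeness is no independent evidence.

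ERF114 LotjaGi1g1v0633400 (chromosome 1, 118747202 to 118750041) was at 3.13, 3.42 and 2.82 FPKM in WT control, 7.89, 8.84 and 8.78 in line 1 control and 7.55, 9.24 and 9.54 in line 2 control. Both lines lay above WT without overlap (line 1 1.31 on the log2 scale, SE 0.13, limma adjusted p = 3.20e-06; line 2 1.35 on the log2 scale, SE 0.13, limma adjusted p = 1.95e-06). A second ERF114-like gene, LotjaGi4g1v0422400 (chromosome 4, 79740668 to 79744993), was nearly silent in WT control at 0.295, 0.173 and 0.422 FPKM and had 2.32, 3.22 and 2.55 in line 1 and 3.35, 2.65 and 3.09 in line 2. Its log2 differences were 2.01 (SE 0.25) in line 1 and 2.15 (SE 0.25) in line 2 (limma adjusted p = 4.67e-05 and 1.92e-05). ERF110 LotjaGi5g1v0289200 (chromosome 5, 60592143 to 60595087) had 1.31, 0.942 and 0.998 FPKM in WT, 3.34, 3.87 and 3.29 in line 1 and 3.35, 3.65 and 3.07 in line 2, with log2 differences of 1.34 (SE 0.15) and 1.29 (SE 0.15) (limma adjusted p = 1.46e-05 and 1.92e-05). In all 3 genes every library of the lines lay above every WT library.

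The group VII gene RAP2-3 LotjaGi5g1v0248300 (chromosome 5, 55695879 to 55697673) had 1.94, 2.01 and 3.38 FPKM in WT control, 4.42, 7.49 and 6.07 in line 1 and 5.39, 6.90 and 6.58 in line 2. Its log2 difference was 1.15 (SE 0.29) in line 1 (limma adjusted p = 0.0152) and 1.23 (SE 0.29) in line 2 (limma adjusted p = 0.00892). The line 1 difference was lost without WT control replicate 1 or 2 or line 1 control replicate 2 or 3 (limma adjusted p = 0.0508 to 0.0816). This is a different gene from the salt-responsive RAP2-3 LotjaGi4g1v0338100_LC, whose log2 differences in control were -0.16 and -0.22. RAP2-1 LotjaGi5g1v0026800, a repressor of cold and drought genes in Arabidopsis, was higher by 0.71 (SE 0.18) in line 1 and 0.70 (SE 0.18) in line 2 (limma adjusted p = 0.0132 and 0.0136). The line 1 call was lost without WT control replicate 1 or 3 or line 1 control replicate 2 or 3 (limma adjusted p = 0.0515 to 0.0742). The line 2 call was lost without WT control replicate 1 or 3 or line 2 control replicate 3 (limma adjusted p = 0.0515 to 0.0664).

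ERF034 was at 19.1, 22.2 and 17.7 FPKM in WT control and 35.4, 43.7 and 35.8 in line 1 (0.94 on the log2 scale, SE 0.13, limma adjusted p = 1.30e-04) with no overlap. Line 2, at 24.7, 22.4 and 27.98, differed from WT by 0.34 (limma adjusted p = 0.109). ERF053 LotjaGi3g1v0443000 was higher in line 1 (1.19 on the log2 scale, SE 0.26, limma adjusted p = 0.00642), and in line 2 its difference was 0.72 (limma adjusted p = 0.0841). PTI5 LotjaGi6g1v0326400 was higher in line 2 (0.68 on the log2 scale, SE 0.13, limma adjusted p = 0.00267), and in line 1 its difference was 0.41 (limma adjusted p = 0.0612). The difference between the lines was not tested for these genes. ERF1B-like LotjaGi1g1v0710100 was lower, with log2 differences of -1.01 (SE 0.27) in line 1 and -1.03 (SE 0.27) in line 2 (limma adjusted p = 0.0215 and 0.0183). In line 1 this ended without WT control replicate 1 or 3 or line 1 control replicate 2 or 3 (limma adjusted p = 0.0678 to 0.122). In line 2 this ended without WT control replicate 1 or 3 or line 2 control replicate 3 (limma adjusted p = 0.0839 to 0.104). In line 1 the number called was 6 without WT control replicate 1, WT control replicate 3 or line 1 control replicate 2, and 5 without line 1 control replicate 3. The upper library set alone gave 20 calls in line 1, where the lower set held only 1 library of each compared group. For line 2 against WT in control each set held only 1 library of a compared group.

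Under salt, members were higher in the lines far more often than lower. In line 1, 24 were higher and 3 lower than WT (27.6% and 3.45%), where 11.2% of all genes were higher and 4.77% lower. In line 2, 25 were higher and 6 lower (28.7% and 6.90%), where 14.9% and 10.2% of all genes were. Medians were 0.24 and 0.21, against 0.01 and 0.00 over all genes. Group X had 6 of 8 members higher and 0 lower in each line, and group IX 7 of 12 higher in line 1 and 6 in line 2, with 0 lower. Quantile normalization gave 21 members higher and 8 lower in each line. Over all genes it gave 1806 higher and 1817 lower in line 1 and 2412 and 2973 in line 2, in place of 2293 and 974, and 3042 and 2083. These comparisons share the WT salt libraries with each other and with the salt effect in WT, so the falls in WT and the excess in the lines rest in part on the same 3 libraries.

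ERF114 and ERF110 were higher in the lines in salt as well. ERF114 LotjaGi1g1v0633400 had 6.20, 7.57 and 6.45 FPKM under salt in line 1 and 7.06, 6.98 and 6.94 under salt in line 2, above all 3 WT salt libraries (log2 differences 1.80 (SE 0.13) and 1.85 (SE 0.13), limma adjusted p = 4.85e-08 and 2.68e-08). ERF110 LotjaGi5g1v0289200 had 0.782, 0.720 and 1.01 FPKM in WT salt, 3.13, 4.10 and 2.87 in line 1 and 3.84, 2.99 and 3.82 in line 2 (limma adjusted p = 1.61e-06 and 7.81e-07). The other ERF110-like gene, LotjaGi2g1v0128200, had 0.0864, 0.562 and 0 FPKM in WT salt, 2.15, 3.12 and 2.91 in line 1 and 3.41, 1.72 and 2.70 in line 2 (log2 differences 2.24 (SE 0.31) and 2.16 (SE 0.31), limma adjusted p = 7.54e-05 and 8.13e-05). All 3 genes had their line libraries above WT without overlap, and none of the 3 passed for a salt effect in a line.

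In group IX, PTI5 LotjaGi6g1v0326400 was higher in salt by 1.74 (SE 0.13) in line 1 and 1.73 (SE 0.13) in line 2 (limma adjusted p = 9.91e-08 and 8.95e-08). ERF1B LotjaGi5g1v0184700 was higher by 2.54 (SE 0.26) and 1.93 (SE 0.26) (limma adjusted p = 2.00e-06 and 3.30e-05). The ERF1A-like gene LotjaGi4g1v0199100, named after an ethylene-responsive activator of Arabidopsis, had 12.2, 4.11 and 6.25 FPKM in WT salt, 20.5, 25.4 and 26.8 in line 1 and 8.50, 17.8 and 27.2 in line 2. Line 1 lay above WT without overlap (1.75 on the log2 scale, SE 0.39, limma adjusted p = 0.00467), whereas line 2 overlapped with it (1.18 on the log2 scale, SE 0.39, limma adjusted p = 0.0343). The call ended without WT salt replicate 2 or 3 or line 2 salt replicate 2 or 3 (limma adjusted p = 0.0905 to 0.170). RAP2-3 LotjaGi5g1v0248300 was higher by 2.22 (SE 0.29) in line 1 and 1.95 (SE 0.29) in line 2 (limma adjusted p = 3.33e-05 and 9.41e-05). Its WT salt libraries were at 1.61, 1.27 and 0.466 FPKM, against 5.09, 6.95 and 8.34 in line 1 and 5.88, 3.82 and 7.12 in line 2, so both lines lay above WT. In WT it fell with salt (log2 change -0.91, limma adjusted p = 0.0400). The fall was lost without WT control replicate 2 or 3 or WT salt replicate 2 or 3 (limma adjusted p = 0.0522 to 0.212).

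Among DREB-type genes, ERF053 LotjaGi3g1v0443000 had 5.28, 3.9998 and 3.62 FPKM in line 2 salt, above line 1 salt and WT salt (log2 differences from WT 1.64 (SE 0.26) in line 1 and 2.59 (SE 0.26) in line 2, limma adjusted p = 2.60e-04 and 1.58e-06). ERF061 had 10.2, 16.02 and 26.3 FPKM in line 1 and 14.9, 20.8 and 28.95 in line 2 (limma adjusted p = 0.00153 and 1.47e-04), and no library of the lines overlapped with WT salt. DREB3 LotjaGi1g1v0405200 was at 6.81, 6.17 and 7.31 FPKM in WT salt, 9.01, 9.63 and 14.7 in line 1 and 14.98, 14.9 and 17.99 in line 2 (log2 differences 0.65 (SE 0.15) and 1.18 (SE 0.15), limma adjusted p = 0.00729 and 2.43e-05). RAP2-4 LotjaGi1g1v0240700 had the smallest adjusted p among the members that were lower, in line 2 (-0.68 on the log2 scale, SE 0.11, limma adjusted p = 2.94e-04), and in line 1 its difference was -0.24 (limma adjusted p = 0.173). ANT LotjaGi1g1v0363400, named after an Arabidopsis regulator of organ growth, was lower, with log2 differences of -0.43 (SE 0.13) in line 1 and -0.45 (SE 0.13) in line 2 (limma adjusted p = 0.0375 and 0.0187). Its line 1 call was lost without WT salt replicate 2 or 3 or line 1 salt replicate 1, 2 or 3 (limma adjusted p = 0.0780 to 0.140). Its line 2 call was lost without WT salt replicate 2 or 3 or line 2 salt replicate 2 or 3 (limma adjusted p = 0.0682 to 0.0798).

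In line 2 the number called in salt was 20 without WT salt replicate 3 and 20 without line 2 salt replicate 2. In line 1, 15 of 27 calls stood in every fit without 1 library, and in line 2 19 of 31. The lower library set alone gave 18 calls in line 1 and 19 in line 2, the upper set 13 and 23.

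Some members varied widely between libraries of 1 group. The median SD within groups was 0.30 on the log2 scale over the 87 members. Of the 8 with the largest SD, 4 were DREB-type genes, a type with 26 of the 87. These 8 all had low mean levels, from 0.851 to 3.53 FPKM. ERF109 LotjaGi4g1v0074000, in Arabidopsis a jasmonate and redox-response gene of group X, had 1.65, 0.345 and 0 FPKM in the WT controls, 0.0920, 0 and 0 in WT salt, 0.684, 0.936 and 4.71 under salt in line 1 and 1.52, 3.97 and 9.31 under salt in line 2. It was called higher in line 2 salt than in WT salt (3.07 on the log2 scale, SE 0.67, limma adjusted p = 0.00289), where voom on recovered reads gave adjusted p = 0.146. ERF109 passed the filter largely through salt libraries of the lines, where it was high. DREB1D LotjaGi4g1v0218900 had 2.64, 0.234 and 0 FPKM in the WT controls, 0.351, 0.341 and 0.172 in WT salt, 1.43, 1.84 and 5.79 under salt in line 1 and 1.60, 6.14 and 5.66 under salt in line 2. In salt, line 2 was higher than WT (2.49 on the log2 scale, SE 0.64, limma adjusted p = 0.00862). Both genes were highest within their group in WT control replicate 1, and low in all 3 WT salt libraries.

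**Figure D5:**
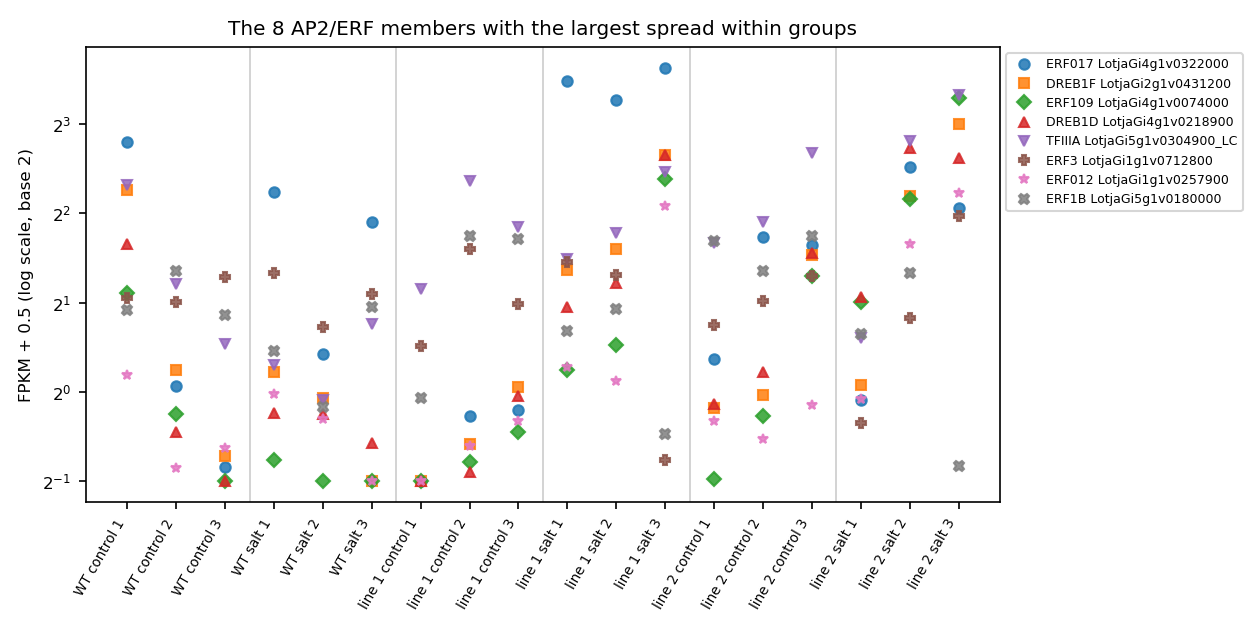
FPKM + 0.5 (logarithmic axis, base 2) of the 8 members with the largest SD within groups, in each of the 18 libraries; each symbol is 1 member and vertical lines divide the groups. Of the 8 members, 6 had their group's highest value in WT control 1, 6 in WT salt 1, 5 in line 1 control 3, 6 in line 1 salt 3, 7 in line 2 control 3 and 5 in line 2 salt 3. The same counts over all members tested were not made.

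The genes around the family were read through lists drawn by name. The ethylene synthesis list took in S-adenosylmethionine synthase genes beside those of ACC synthase and ACC oxidase, so its counts are not those of the last 2 kinds alone. Of its 14 genes tested, 2 rose and 4 fell with salt in WT, where the shares over all genes were 6.35% and 9.91%. In salt 6 were higher and 1 lower than WT in each line, where 11.2% of all genes were higher in line 1 and 14.9% in line 2, and 4.77% and 10.2% lower. The ACC oxidase gene LotjaGi1g1v0066900, whose enzyme makes ethylene from ACC, had 4.29, 6.80 and 9.11 FPKM in the WT controls, 0.677, 0 and 0.198 in WT salt, 5.82, 12.3 and 8.46 under salt in line 1 and 8.18, 4.48 and 6.21 under salt in line 2. It fell in WT without overlap (-3.23 on the log2 scale, SE 0.37, limma adjusted p = 7.38e-06), and the lines' mean salt effect was higher than that of WT (3.62 on the log2 scale, SE 0.46, limma adjusted p = 6.20e-05). The ACC synthase gene LotjaGi4g1v0430100 had 15.9, 14.1 and 15.9 FPKM in the WT controls and 7.13, 5.19 and 5.81 under salt, against 25.0003, 30.5 and 30.6 (control) and 16.2, 24.1 and 24.6 (salt) in line 1. It had 25.9, 29.5 and 28.3 (control) and 24.4, 27.01 and 37.2 (salt) in line 2. The lines' salt effect was higher by 1.10 (SE 0.21), limma adjusted p = 0.00211. Both lines lay above WT in each condition.

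Of 18 ethylene perception and signalling genes, salt gave 2 rises and 2 falls in WT, 5 rises in line 1, and 1 rise and 1 fall in line 2. Among all genes tested 6.35% rose and 9.91% fell in WT, 4.19% and 4.42% in line 1, and 4.24% and 4.42% in line 2. The CTR1-like kinase gene LotjaGi1g1v0345100, whose Arabidopsis namesake represses ethylene signalling, had 38.1, 34.9 and 39.7 FPKM in the WT controls, 18.6, 18.03 and 23.7 in WT salt, 30.9, 25.4 and 24.4 (control) and 22.7, 24.97 and 32.3 (salt) in line 1, and 27.2, 21.6 and 24.5 (control) and 31.3, 26.7 and 31.2 (salt) in line 2. The difference in its salt effect was 1.02 (SE 0.17), limma adjusted p = 8.76e-04. Its WT control libraries were the highest of the 18, and its WT salt libraries overlapped with the controls of line 2. Ethylene receptor 2 LotjaGi5g1v0182400 rose with salt in WT and line 1 (0.57 and 0.87, limma adjusted p = 0.00366 and 2.86e-04), while line 2 gave 0.25 (limma adjusted p = 0.239).

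A further list of 70 tested genes was drawn by the names of protein kinds with some GCC-box genes in other plants. These were chitinases, glucanases, osmotins and thaumatin-like proteins, defensins and PR-4. Many were numbered glucan endo-1,3-beta-glucosidases or thaumatin-like proteins, so the counts are not those of known GCC-box genes. Of the 70, salt was followed by 5 rises and 15 falls in WT, 6 rises and 1 fall in line 1, and 1 rise in line 2. Over all genes the shares that rose were 6.35%, 4.19% and 4.24%, and those that fell 9.91%, 4.42% and 4.42%. The list's salt effect was higher in the lines than in WT for 11 and lower for 0, with a median of 0.11, where 5.89% of all genes were higher and 2.27% lower. The endochitinase gene LotjaGi4g1v0137500 had 17.8, 32.5 and 21.5 FPKM in the WT controls, 4.58, 2.30 and 3.43 in WT salt, 35.9, 52.96 and 45.5 under salt in line 1 and 62.7, 68.8 and 73.1 under salt in line 2. Its salt effect was higher in the lines (2.28 on the log2 scale, SE 0.27, limma adjusted p = 2.83e-05). Its line libraries lay above WT salt without overlap. The last list, meant for genes with dehydration-responsive elements, was also drawn by name. It took in late embryogenesis abundant, desiccation, cold-regulated and galactinol synthase genes, and a name is no proof of the element. Of its 9 genes tested, none passed as higher with salt, and falls numbered 1 for WT, 3 for line 1 and 2 for line 2. The gene LotjaGi5g1v0027900, named cold-regulated protein 27, had 42.8, 37.7 and 40.8 FPKM in the WT controls and 1.29, 2.18 and 3.18 under salt, 29.1, 29.3 and 31.9 (control) and 2.43, 3.23 and 6.26 (salt) in line 1, and 19.1, 25.2 and 26.9 (control) and 10.7, 12.4 and 13.7 (salt) in line 2. It fell in all 3 genotypes without overlap (log2 changes -3.97 (SE 0.26), -2.87 (SE 0.26) and -0.92 (SE 0.26), limma adjusted p = 1.33e-08, 3.31e-06 and 0.0376). Whether any of these genes carries a GCC box or a dehydration-responsive element, or is bound by an AP2/ERF factor, was not measured.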

How the data were processed

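Poly(A) RNA of 18 shoot libraries was sequenced after dUTP strand marking, per the labels' protocols. The deposited table holds FPKM per gene, made by the authors with fastp, featureCounts 1.5.0-p3 and DESeq2 1.20.0 among the tools, per the submitters' processing notes. Build, aligner, strand setting and the treatment of reads that map to several places: not given in the sources used here. Thus close copies and overlapping genes may share reads, and positions are those of the deposited table. FPKM steps gave whole reads for 100% of values (tolerance 0.05), from 42125949 to 101713201 reads per library.

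From these, log2(FPKM + 0.5) was fitted with limma 3.58.1 in R 4.3.3 as 6 group means over 18 libraries, with a mean-variance trend, for the 20433 genes with 3 or more libraries at 1 FPKM or above. Fold changes on this scale understate the change of low genes. Adjusted p-values are Benjamini-Hochberg over all genes tested, with a threshold of 0.05 in each of 8 comparisons. They weigh each difference against the spread between libraries within groups, and how many plants make up a library is not stated. Tables and figures were made with python 3.11.15, pandas 2.3.3, numpy 2.4.6 and matplotlib 3.10.9.

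Members, subfamilies, lists and tests were chosen with earlier results of these data known. Subfamilies follow the Swiss-Prot names, and ERF118 was placed with the cytokinin response factors after the names were read. Named members are the 6 largest rises and falls past the threshold in each comparison, the 5 most abundant members, the 2 most abundant of each subfamily, the 3 most abundant below the filter, and for the lists the 2 genes of smallest adjusted p in each comparison. Alternatives were pseudocounts of 0.1 and 1, no filter, median-of-ratios and quantile scaling, the compared groups alone, a replicate block, each library left out, voom on recovered reads, the library set as a term and each set alone. Scaling to the gene total was added after seeing the data.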

Additional observations from a re-analysis of the deposited data

Results flagged for a closer look

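In 18 members the mean salt effect of the lines differed from that of WT in a test of the difference itself (limma, adjusted over all genes, threshold 0.05). The log2 differences of the 11 whose call stood without any 1 library were 2.87 for ERF1B LotjaGi5g1v0184700, 2.22 for ERF2, 2.19 for the ERN1-like gene LotjaGi2g1v0262000, 2.04 for ERF14 LotjaGi5g1v0184300, 1.67 for ERF4 LotjaGi6g1v0329200 and also 1.67 for ERF113 LotjaGi1g1v0527700, 1.19 for PTI5 LotjaGi6g1v0326400, 1.18 for ERF5 LotjaGi4g1v0199300_LC, 0.79 for PTI6 LotjaGi1g1v0105200, 0.78 for DREB3 LotjaGi1g1v0405200 and -0.66 for RAP2-4 LotjaGi1g1v0240700.

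The other 7 were each lost without 1 of several libraries. Their log2 differences were 2.84 for ERF109 LotjaGi4g1v0074000, 1.32 for ERF110 LotjaGi2g1v0128200, 1.17 for ERF061, 1.16 for ERF053 LotjaGi3g1v0443000, 1.01 for ERF12 LotjaGi6g1v0329300, 0.99 for RAV1 and -0.61 for At1g16060-like LotjaGi3g1v0346300. Without WT control replicate 1 each of these 7 was lost (limma adjusted p = 0.0579 to 0.134). ERF12 LotjaGi6g1v0329300 lies outside the rule for named members and was named after its value was seen. ERF2 and ERF109 LotjaGi4g1v0074000 passed the filter largely through salt libraries of the lines, where they were high.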

How the results depend on the processing

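Of 1474 alternative values for 77 named changes, 1172 kept their direction and their side of the threshold, 302 kept the direction but not the call, and 0 reversed; 13 changes kept the call throughout. The lower library set alone ended 52 calls and the upper set 32, with fewer libraries in each fit, and the compared groups alone ended 15. For other settings that moved a count of called members by over 1.5 times the cause was not tested. The lower set alone held 1 library of each compared group for salt in line 1 and for line 1 against WT in control. The upper set did so for salt in line 2 and for line 2 against WT in salt.

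With the lower library set alone the number of members called was 10 for salt in WT (30 in the full fit), 0 for salt in line 1 (22), 2 for salt in line 2 (7), 0 for line 1 against WT in control (10), 3 for line 2 against WT in control (9) and 19 for line 2 against WT in salt (31). With the upper set alone it was 0 for salt in line 2, 20 for line 1 against WT in control, 13 for line 1 against WT in salt (27) and 2 for the difference in salt effect (18). With the library set as a term it was 14 for salt in line 2 and 16 for line 2 against WT in control. Salt in line 1 gave 12 with the compared groups alone and 14 with voom, and the difference in salt effect gave 11 without a filter.

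Leaving out 1 library at a time gave 21 to 25 calls for salt in WT, 10 to 16 for salt in line 1, 2 to 9 for salt in line 2, 5 to 15 and 6 to 11 for lines 1 and 2 against WT in control, 18 to 26 and 20 to 34 for lines 1 and 2 against WT in salt, and 11 to 22 for the difference in salt effect.

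Replicate numbers are shared between groups, but deviations of same-numbered libraries correlated at -0.31 to 0.48, so the numbers were not taken as pairs. With the replicate block the counts were 27, 20 and 6 for salt in WT, line 1 and line 2, 10 and 9 for lines 1 and 2 in control, 28 and 31 in salt, and 18 for the difference in salt effect.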

Other observations

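Of the 148 members 32 fell into 14 runs with another member within 100 kb, and 16 of the 32 passed the filter. The group VIII pair ERF4 LotjaGi6g1v0329200 and ERF12 LotjaGi6g1v0329300 spanned 25.05 kb, and both had a higher salt effect in the lines than in WT. The group IX pair LotjaGi4g1v0199100 and LotjaGi4g1v0199300_LC spanned 81.45 kb. A run of 4 group IX genes around ERF2 (chromosome 3, 7113543 to 7118902) spanned 154.4 kb, and 1 of the 4 passed. PTI5 LotjaGi6g1v0326400 and its neighbour LotjaGi6g1v0326300 spanned 3.38 kb, and 1 of them passed.

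Some members below the filter were called when no filter was set, and those named here were chosen after their values were seen. ERF114 LotjaGi1g1v0332700 was higher than WT in control by 1.39 in line 1 and 1.53 in line 2, and in salt by 0.95 and 0.80 (log2, limma adjusted p = 8.83e-05, 3.36e-05, 0.00146 and 0.00364). DREB2A LotjaGi1g1v0446800, an Arabidopsis activator of drought genes, was higher by 0.88 and 1.10 in control and by 0.83 and 0.61 in salt (limma adjusted p = 0.00671, 0.00124, 0.00717 and 0.0309). Both stayed below 1 FPKM in all but at most 2 libraries.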
